A study of Mus musculus with 19 samples.

Results

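Glycolytic enzyme isoforms were followed through 4 mouse tissues, to see where one gene of an enzyme family gave way to another. The genes were the hexokinases Hk1, Hk2 and Hk3, the phosphofructokinases Pfkm, Pfkl and Pfkp, the aldolases Aldoa and Aldoc, the enolase Eno3 and the phosphoglycerate mutase Pgam2. Each gene was read from the brightest of the probe sets annotated with its symbol alone. Of the 10 genes, 9 had such a probe set, among 22180 genes measured in all. Aldoa was annotated together with a second symbol and was not analysed here.

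RNA was measured on 19 Affymetrix arrays, 1 per sample, from mice of mixed C57Bl/6 and 129X1/SvJ strain. The tumor group held 7 angiosarcomas, malignant tumors of the endothelial lineage, from aP2-Cre/+;DicerFlox/- mice. In these animals Cre recombinase was driven by the aP2 (Fabp4) promoter, and Dicer had 1 floxed and 1 null allele. The normal groups were 4 aortas, 4 quadriceps femoris muscles and 4 sternocleidomastoid muscles from wild type mice, so genotype and tissue changed together in every tumor comparison. No age, sex or batch was given. Nothing in the labels ties samples to separate animals, so the p-values cover the spread among these samples alone, which may be technical. All levels are log2 intensities, in which a difference of 1 is 2-fold. In bulk tissue, fewer cells of a type and less RNA per cell cannot be told apart.

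Glycolysis turns glucose into pyruvate through a fixed series of steps, and several of the steps are run by enzymes that exist as more than 1 gene. Hexokinase commits glucose to the cell, phosphofructokinase makes fructose bisphosphate in the main regulated step, aldolase splits it, and phosphoglycerate mutase and enolase work near the end of the chain. Skeletal muscle is known for a fast glycolytic set made of Hk2, Pfkm, Eno3 and Pgam2. Other tissues use Hk1, Pfkl, Pfkp, Pgam1 and Eno1 more widely.

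The tumors had lower levels of all 4 genes of the muscle set than either muscle, and higher levels of Hk1, Hk3, Pfkl and Pfkp. Of the 9 measured genes, 4 were higher and 4 lower in tumor than in muscle (limma, adjusted p under 0.05), where 25.3% of all genes were called higher and 25.7% lower. Against aorta, 2 were higher and 4 lower, where 18.6% of all genes were called higher and 17.5% lower. Between aorta and muscle 3 were higher in aorta and 3 lower, where 17% and 15.3% of all genes were called. The median difference of the 9 genes was -0.91 against aorta and 0.24 against muscle, and that of all genes was -0.02 and -0.04. The 3 comparisons share samples and are not independent of each other.

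**Figure D1:**
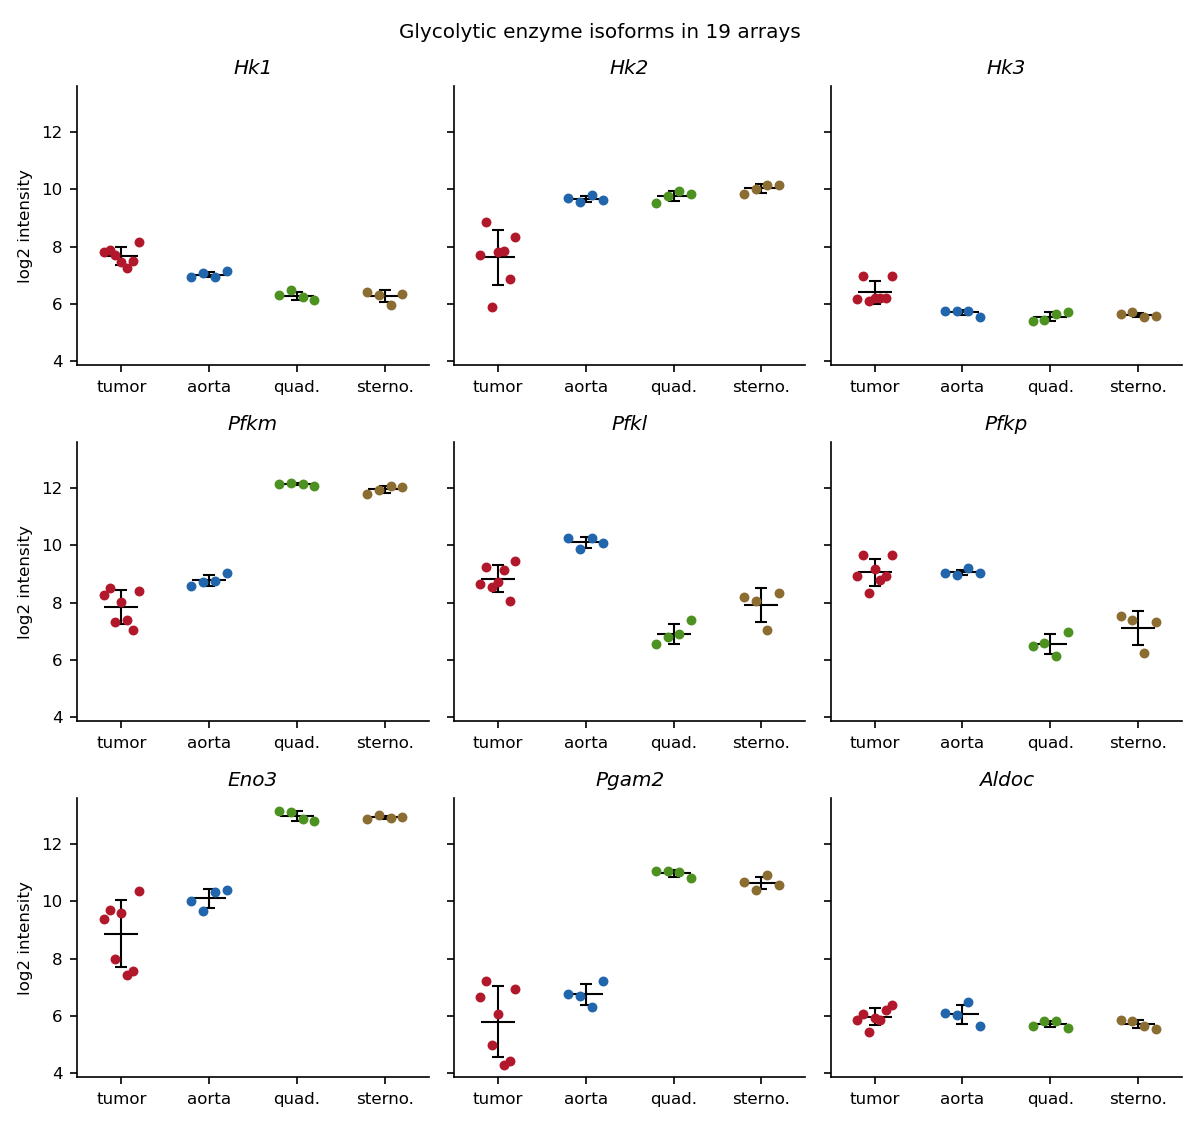
Log2 intensity of the 9 measured genes in each of the 19 arrays, grouped as tumor (7), aorta (4), quadriceps (quad., 4) and sternocleidomastoid (sterno., 4). Points are arrays, the long bar is the group mean and the whiskers are 1 SD; Pfkm, Eno3 and Pgam2 stand highest in both muscles, while Hk2 is below every normal sample in all 7 tumors.

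Hk1, the hexokinase found in most cell types, was highest in tumor. Its levels in tumors 1 to 7 were 7.82, 7.88, 7.72, 7.45, 7.25, 7.49 and 8.17. The aortas read 6.95, 7.07, 6.95 and 7.13, the quadriceps samples 6.30, 6.47, 6.25 and 6.14, and the sternocleidomastoid samples 6.44, 6.30, 5.96 and 6.36. Every tumor lay above every aorta, and every aorta above every muscle sample. Hk1 was 1.58-fold higher in tumor than in aorta (0.66 ± 0.14 log2 units, SE; adjusted p = 0.000909) and 2.65-fold higher than in muscle (1.41 ± 0.12; adjusted p = 3.83e-09). Aorta exceeded muscle by 0.75 ± 0.14 (adjusted p = 0.000246). The order of levels was therefore tumor, aorta and then both muscles, whose means of 6.29 ± 0.14 (SD, n = 4) and 6.27 ± 0.21 (n = 4) differed by less than their spread.

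Hk2, the insulin-responsive hexokinase of muscle, heart and fat, ran the other way. The 7 tumors read 7.72, 8.86, 5.91, 7.82, 7.84, 6.88 and 8.34. The aortas stood at 9.70, 9.54, 9.80 and 9.63. Quadriceps samples read 9.52, 9.75, 9.94 and 9.82, and sternocleidomastoid samples 9.83, 10.01, 10.15 and 10.14. All 7 tumors were below all 12 normal samples, with tumor 3 lowest and tumor 2 highest. The level was 4.12-fold lower in tumor than in aorta (-2.04 ± 0.36; adjusted p = 0.000134) and 4.83-fold lower than in muscle (-2.27 ± 0.29; adjusted p = 1.81e-06). Aorta and muscle differed by -0.23 ± 0.35 (adjusted p = 0.679). The tumors were also the most variable group, with an SD of 0.97 against 0.11 in aorta, 0.18 in quadriceps and 0.15 in sternocleidomastoid.

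Hk3, a hexokinase known mainly from blood leukocytes, was dim in the normal tissues and modestly brighter in tumor. Tumors 1 to 7 read 6.17, 6.98, 6.09, 6.22, 6.21, 6.21 and 6.99. The aortas read 5.74, 5.76, 5.77 and 5.56, quadriceps 5.40, 5.46, 5.66 and 5.72, and sternocleidomastoid 5.64, 5.72, 5.53 and 5.60, close to the array medians of 5.35 to 5.48. No normal sample reached the lowest tumor. The difference was 0.70 ± 0.16 against aorta (1.63-fold; adjusted p = 0.00153) and 0.82 ± 0.13 against muscle (1.76-fold; adjusted p = 2.5e-05).

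Macrophage markers, and part of the neutrophil markers, were higher in tumor, as Hk3 was. Macrophage markers were higher in tumor for 11 of 12 genes in both comparisons, with a mean level over the list of 8.60 to 9.48 in tumors, 7.27 to 7.59 in aortas, 6.65 to 7.58 in quadriceps and 7.004 to 7.13 in sternocleidomastoid. Tumors 2 and 7, the highest for Hk3, were also the highest for that mean, at 9.48 and 9.47. Neutrophil markers were higher in tumor for 6 of 12 genes against aorta and 7 of 12 against muscle, where 1 was lower, and their mean ran from 5.09 to 7.03 in tumors and 4.58 to 4.76 in aortas. The neutrophil mean was highest in tumor 2, but read 5.93, 5.94 and 5.93 in tumors 1, 3 and 7. By gene the picture was mixed. Csf3r and Cxcr2 were highest in tumors 2 (9.35 and 8.54) and 7 (9.09 and 9.06), with at most 8.08 and 8.37 in the other tumors. Retnlg was highest in tumors 2 and 3 (10.74 and 7.70) and read 6.03 in tumor 7. The neutrophil granule genes Elane and Mpo averaged 5.39 and 4.94 in tumors, below their aorta means of 5.63 and 5.06. Both genes were dim, near or below the lowest array median of 5.35. Every other gene of the neutrophil list had a higher mean in tumor than in aorta, such as Cxcr2 (7.87 and 6.27) and Mmp8 (6.35 and 4.78). In quadriceps and sternocleidomastoid Elane averaged 5.54 and 5.43, and Mpo 5.17 and 5.20. The part of these cells in the Hk3 difference was not tested.

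Phosphofructokinase isoforms divided the muscles from the other tissues. The muscle subunit gene, Pfkm, read 8.28, 8.52, 7.33, 8.02, 7.39, 7.04 and 8.42 in the tumors and 8.58, 8.72, 8.76 and 9.01 in the aortas. Quadriceps samples read 12.12, 12.16, 12.13 and 12.06, and sternocleidomastoid samples 11.77, 11.92, 12.05 and 12.03. The tumor, aorta and muscle samples formed 3 ranges that did not overlap. Pfkm was 18.0-fold lower in tumor than in muscle (-4.17 ± 0.19; adjusted p = 9.28e-13), 9.59-fold lower in aorta than in muscle (-3.26 ± 0.22; adjusted p = 9.76e-10) and 1.88-fold lower in tumor than in aorta (-0.91 ± 0.23; adjusted p = 0.00328).

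Pfkl, the liver-type subunit, was highest in aorta. The aortas read 10.24, 9.85, 10.26 and 10.06, and the tumors 8.66, 9.25, 8.56, 8.73, 9.12, 8.05 and 9.45. Quadriceps samples read 6.56, 6.81, 6.89 and 7.40, and sternocleidomastoid samples 8.21, 8.05, 7.04 and 8.32. Every aorta lay above every tumor, and tumor 6 lay within the sternocleidomastoid range. The level was 2.42-fold lower in tumor than in aorta (-1.27 ± 0.25; adjusted p = 0.000496) but 2.68-fold higher in tumor than in muscle (1.42 ± 0.21; adjusted p = 8.95e-06). Aorta exceeded muscle 6.47-fold (2.69 ± 0.25; adjusted p = 6.7e-08).

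Pfkp, the platelet-type subunit, had nearly the same mean in tumor and aorta, 9.06 and 9.05. Tumor levels were 8.92, 9.64, 8.34, 9.16, 8.79, 8.92 and 9.65, on either side of the aortas at 9.03, 8.98, 9.19 and 9.02. The muscles were lower, at 6.49, 6.60, 6.12 and 6.97 in quadriceps and 7.53, 7.38, 6.25 and 7.32 in sternocleidomastoid. Tumor minus aorta was 0.01 ± 0.25 (adjusted p = 0.989), a sign that turned to -0.15 when arrays were centred on housekeeping genes. Tumor exceeded muscle 4.68-fold (2.23 ± 0.20; adjusted p = 1.82e-08), and aorta exceeded muscle 4.66-fold (2.22 ± 0.24; adjusted p = 6.45e-07). Of the 3 phosphofructokinase genes, Pfkm and Pfkl were thus lower in tumor than in aorta, and Pfkp did not pass the test there.

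The promoters of the subunits that stood above muscle in both tumor and aorta are shown with the strand and position of RefSeq's GRCm38.p6 annotation, 250 bases before to 50 after the start. Capitals mark an E-box, CANNTG, searched on both strands. Pfkl (chr10:78009758-78010057, minus strand) held 3 E-boxes and Pfkp (chr13:6648722-6649021, minus strand) held 0. Both are rich in the dinucleotide CG, with 20 and 21 of them, where the median over 32851 RefSeq promoters was 7 and the upper quartile 20.
Pfkl promoter: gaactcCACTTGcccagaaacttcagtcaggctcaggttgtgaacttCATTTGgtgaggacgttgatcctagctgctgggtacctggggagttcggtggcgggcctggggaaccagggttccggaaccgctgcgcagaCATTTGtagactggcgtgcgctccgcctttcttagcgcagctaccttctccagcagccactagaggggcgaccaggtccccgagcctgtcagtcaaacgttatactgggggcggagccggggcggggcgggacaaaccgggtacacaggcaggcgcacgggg
Pfkp promoter: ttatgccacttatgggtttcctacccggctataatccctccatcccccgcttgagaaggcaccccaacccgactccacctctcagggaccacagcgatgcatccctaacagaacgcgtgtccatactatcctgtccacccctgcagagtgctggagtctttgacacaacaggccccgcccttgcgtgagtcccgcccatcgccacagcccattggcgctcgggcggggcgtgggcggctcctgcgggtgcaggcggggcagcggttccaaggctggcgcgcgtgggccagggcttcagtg
The 4 annotated Pfkm starts, whose use these probe sets do not tell apart, had 4, 9, 12 and 4 CG in the same window. Hk2, also of the muscle set, had 25 CG, and the 2 starts of the widely expressed Hk1 had 1 and 20. The CG count thus did not divide the muscle set from the other isoforms.

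Eno3, the muscle enolase gene, and Pgam2, the muscle phosphoglycerate mutase gene, followed Pfkm in being highest in both muscles. Their promoters are shown because these genes, with Pfkm, had the steepest drops from muscle to the other tissues. Eno3 (chr11:70656926-70657225, plus strand) held 3 CG and 2 E-boxes, and Pgam2 (chr11:5803747-5804046, minus strand) 1 CG and 5 E-boxes. The Pgam2 window also held a match to the MEF2 consensus, CTATTTTTAA, 80 bases before the start. Capitals mark these matches.
Eno3 promoter: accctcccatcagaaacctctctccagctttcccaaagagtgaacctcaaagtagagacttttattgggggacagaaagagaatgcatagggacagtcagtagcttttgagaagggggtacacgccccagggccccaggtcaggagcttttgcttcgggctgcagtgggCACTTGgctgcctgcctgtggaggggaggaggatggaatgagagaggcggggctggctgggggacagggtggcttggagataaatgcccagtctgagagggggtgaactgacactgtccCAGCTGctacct
Pgam2 promoter: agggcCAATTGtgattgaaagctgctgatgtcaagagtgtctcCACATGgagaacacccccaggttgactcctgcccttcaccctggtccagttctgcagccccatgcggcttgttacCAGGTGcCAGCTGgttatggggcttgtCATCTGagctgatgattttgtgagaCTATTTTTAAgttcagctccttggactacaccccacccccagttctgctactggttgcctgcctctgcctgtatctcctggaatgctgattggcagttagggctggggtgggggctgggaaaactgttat
The MEF2 consensus, a site bound by a muscle transcription factor family, reads the same on both strands and cannot overlap an E-box. Matches to it were present in 3.19% of RefSeq promoters and in 1 of the 17 promoters of the 10 genes. E-boxes were present in 72.3% of all promoters and 13 of these 17, and ACGTG on either strand, which overlaps an E-box in CACGTG, in 19.6% and 8 of 17. The 17 windows are not separate sequences. Those of Aldoa starts 2 and 3 overlap, as do those of Pfkm starts 2 and 3, so a shared match can count more than once. Such a match describes the letters and is not evidence of binding.

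Pgam2 separated the tissues most widely. Quadriceps samples read 11.05, 11.03, 11.03 and 10.79, and sternocleidomastoid samples 10.65, 10.40, 10.92 and 10.54. The aortas read 6.75, 6.70, 6.32 and 7.23, and tumors 1 to 7 read 6.67, 7.23, 5.002, 6.07, 4.30, 4.42 and 6.95. Tumors 3, 5 and 6 lay below the lowest array median of 5.35, while tumors 1, 2 and 7 overlapped the aortas. Pgam2 was 31.9-fold lower in tumor than in muscle (-4.99 ± 0.37; adjusted p = 1.11e-09) and 16.6-fold lower in aorta than in muscle (-4.05 ± 0.44; adjusted p = 6.8e-07). Against aorta the tumor difference was -0.94 ± 0.45 (adjusted p = 0.119). It passed the threshold without tumor 2 (-1.18; adjusted p = 0.033), with housekeeping centring (-1.09; adjusted p = 0.0486) and in tumors 5 to 7 alone (-1.52; adjusted p = 0.0182).

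Eno3 read 13.15, 13.09, 12.86 and 12.79 in quadriceps and 12.85, 12.98, 12.88 and 12.92 in sternocleidomastoid. The aortas read 10.02, 9.67, 10.31 and 10.39, and the tumors 9.39, 9.68, 7.99, 9.59, 7.42, 7.58 and 10.35. Tumors 3, 5 and 6 were again lowest, and tumors 2 and 7 fell within the aorta range. Tumor was 16.9-fold below muscle (-4.08 ± 0.36; adjusted p = 8.7e-09), and aorta 7.18-fold below muscle (-2.84 ± 0.42; adjusted p = 2.53e-05). Against aorta, tumor was 2.36-fold lower (-1.24 ± 0.43; adjusted p = 0.0299). That call was lost when only the tumor and aorta arrays were fitted (adjusted p = 0.101), and on leaving out tumor 3, tumor 6, aorta 1, aorta 3 or aorta 4 (adjusted p = 0.058, 0.054, 0.0557, 0.0779 and 0.084).

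Skeletal muscle markers were also lowest in tumors 3, 5 and 6. The mean over 16 markers was 8.82, 9.97, 6.84, 8.39, 5.30, 5.56 and 9.02 in tumors 1 to 7, and 7.79, 5.77, 7.62 and 6.05 in the aortas. Both muscles lay between 11.9 and 12.3. All 16 markers were lower in tumor than in muscle, and against aorta 0 were higher and 1 lower. The fast myosin gene Myh4 read 10.55 in tumor 2 and 4.25 in tumor 5, and Acta1, the skeletal actin gene, 12.31 and 7.55. In the 3 tumors with the lowest marker means, numbers 3, 5 and 6 (picked after the data were seen), tumor minus aorta was -2.43 for Eno3, -2.17 for Pgam2 and -1.51 for Pfkm, and tumor minus muscle -5.28, -6.22 and -4.78. These 3 tumors are also the lowest for the 3 genes themselves, so the larger size follows from the choice and is a description only. The part of muscle fibres in the levels of tumors 1, 2, 4 and 7 was not tested. With aortas 2 and 4 alone, which had the lower marker means, Eno3 missed the threshold (-1.17; adjusted p = 0.161). The difference was close to the -1.24 of all aortas, and the fit had only 2 aortas. Pfkm still passed in that fit (-1.01; adjusted p = 0.0201).

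**Figure D2:**
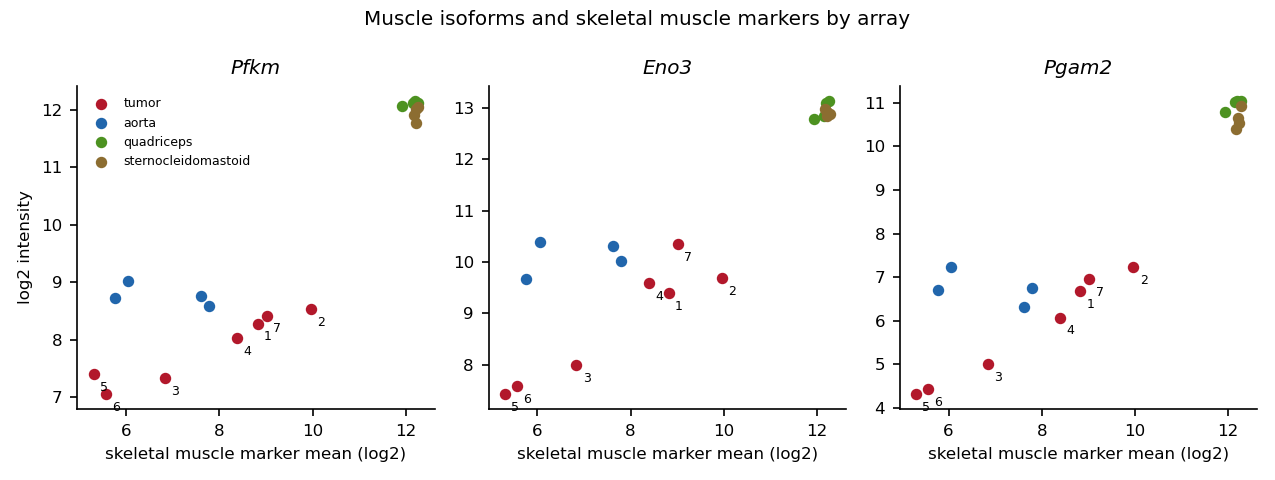
Log2 intensity of Pfkm, Eno3 and Pgam2 (vertical axes) against the mean log2 intensity of 16 skeletal muscle markers (horizontal axes), 1 point per array, with tumors numbered. Tumors 5, 6 and 3 have the lowest marker means (5.30, 5.56 and 6.84) and the lowest Eno3 and Pgam2, while aortas 2 and 4, with means of 5.77 and 6.05, have Eno3 at 9.67 and 10.39.

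The aorta samples also carried markers of heart muscle and brown fat. Of 12 heart muscle markers, 11 were lower in tumor than in aorta, and their mean was 8.99 to 9.60 in aortas against 5.51 to 6.08 in tumors. Brown adipocyte markers had a mean of 10.4 to 10.9 in aortas and 5.37 to 8.28 in tumors, with 10 of 11 lower in tumor. Myh6, the atrial myosin gene, averaged 10.02 in aorta and 4.82 in tumor, and Ucp1, the uncoupling protein of brown fat, 12.77 and 6.42. Ucp1 was not particular to aorta. It read 11.08 and 10.47 in tumors 4 and 5 and 4.39 to 4.81 in the other tumors, and averaged 11.22 in sternocleidomastoid and 5.88 in quadriceps. Smooth muscle markers, the defining genes of the vessel wall, had means of 9.61 to 10.05 in aortas and 8.25 to 9.28 in tumors. The share of these tissues in the Hk2, Pfkm, Pfkl and Eno3 levels of the aorta samples was not tested.

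Aldoc, the brain-type aldolase gene, was dim throughout. Its levels were 5.87, 6.07, 5.46, 5.92, 5.88, 6.21 and 6.39 in tumors, 6.09, 6.04, 6.48 and 5.66 in aortas, 5.67, 5.81, 5.83 and 5.60 in quadriceps, and 5.87, 5.84, 5.64 and 5.56 in sternocleidomastoid. The groups overlapped. Tumor minus aorta was -0.10 ± 0.15 (adjusted p = 0.671), tumor minus muscle 0.24 ± 0.13 (adjusted p = 0.119) and aorta minus muscle 0.34 ± 0.15 (adjusted p = 0.0912). The difference from muscle passed without tumor 3 (0.33; adjusted p = 0.0227) and in tumors 5 to 7 alone (0.43; adjusted p = 0.0247). Without aorta 4, aorta minus muscle passed as well (0.47; adjusted p = 0.0238), as it did when only the compared groups were fitted (adjusted p = 0.0412).

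**Figure D3:**
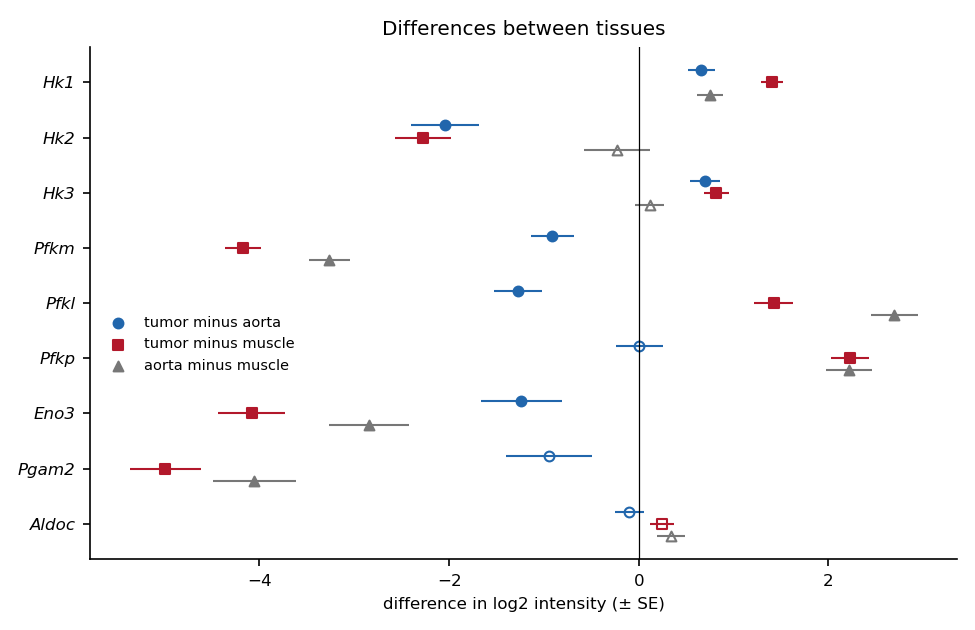
Difference in log2 intensity for each of the 9 genes in tumor minus aorta (circles), tumor minus muscle (squares) and aorta minus muscle (triangles), with bars of 1 SE. Filled marks passed an adjusted p of 0.05 and open marks did not; Pfkm, Eno3 and Pgam2 lie between -2.84 and -4.99 in both comparisons with muscle, and Pfkp lies at 0.01 between tumor and aorta.

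Ratios of 2 isoforms within an array cancel any shift of the whole array, and were compared between tissues as a description with no test. Probe sets differ in brightness, so the ratio in 1 tissue does not say which isoform was more abundant. The log2 ratio of Hk2 over Hk1 was -0.10, 0.97, -1.82, 0.37, 0.59, -0.62 and 0.17 in tumors 1 to 7. It was 2.47 to 2.85 in aorta, 3.22 to 3.70 in quadriceps and 3.39 to 4.18 in sternocleidomastoid. All tumors were below all normal samples, by 6.51-fold on average against aorta (-2.70) and 12.8-fold against muscle (-3.68). For Hk3 over Hk1 the tumor mean of -1.28 was close to that of aorta at -1.32, and the muscles stood at -0.73 and -0.64.

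Pfkp over Pfkm gave a log2 ratio of 0.64 to 1.87 in tumors and 0.01 to 0.45 in aortas, so that these groups did not overlap. In quadriceps the ratio was -6.00 to -5.09 and in sternocleidomastoid -5.80 to -4.24. The mean shift toward Pfkp was 84.4-fold from muscle to tumor (6.40), 44.7-fold from muscle to aorta (5.48) and 1.89-fold from aorta to tumor (0.92). Pfkl over Pfkm shifted by 48.3-fold from muscle to tumor (5.59) and by 62.1-fold from muscle to aorta (5.96). Its tumor range of 0.38 to 1.73 took in the aorta range of 1.05 to 1.66.

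Pgam1, the widely expressed phosphoglycerate mutase gene, was the partner of Pgam2. Pgam1 read 9.37, 9.99, 9.23, 9.52, 9.38, 8.47 and 9.65 in tumors and 10.23 to 10.37 in aortas. It was 1.89-fold lower in tumor than in aorta (-0.92 ± 0.23; adjusted p = 0.00351) and 2.51-fold higher than in muscle (1.33 ± 0.19; adjusted p = 6.56e-06). A second, dimmer Pgam1 probe set gave -0.87 against aorta and 0.05 against muscle, so the 2 probe sets disagreed for muscle. The log2 ratio of Pgam1 over Pgam2 was 2.70 to 5.07 in tumors, 3.14 to 3.91 in aortas, -3.76 to -2.56 in quadriceps and -3.05 to -1.64 in sternocleidomastoid. From muscle to tumor this was a shift of 79.9-fold (6.32) and from muscle to aorta 78.6-fold (6.30), and with the mean over both Pgam1 probe sets these shifts were 5.68 and 5.63. The enolase and aldolase pairs, which need Eno1 and Aldoa, were not analysed here.

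**Figure D4:**
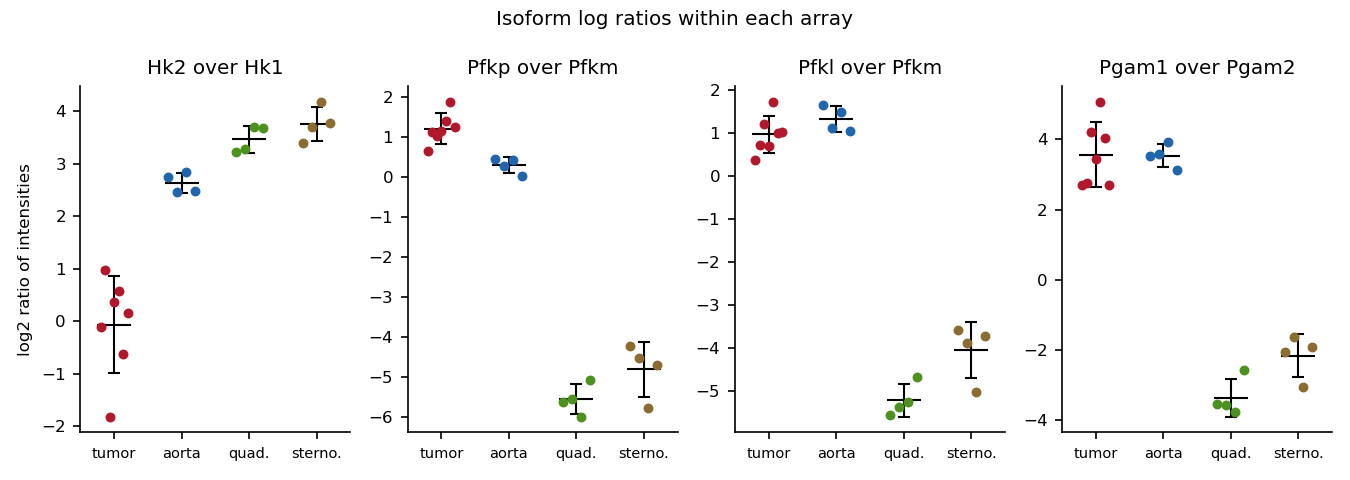
Log2 ratio of 2 isoforms within each array for Hk2 over Hk1, Pfkp over Pfkm, Pfkl over Pfkm and Pgam1 over Pgam2, with points for arrays, a long bar for the group mean and whiskers of 1 SD; each panel has its own vertical scale. Hk2 over Hk1 is lowest in tumor, while the other 3 ratios are 5.48 to 6.40 log2 units lower in muscle than in tumor or aorta, and Pfkp over Pfkm is 0.92 higher in tumor than in aorta.

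Few genes of any kind separated the muscles. In sternocleidomastoid minus quadriceps 0 of 9 genes passed limma's adjusted p of 0.05, where 0.433% of all genes (96) passed in either direction, so that a count of 0 is also what the background gives. At an unadjusted p under 0.05, 1 of the 9 and 1567 of all genes passed. The 1 gene was Pfkl, at 0.99 ± 0.28 (1.99-fold; limma adjusted p = 0.231), and Pfkp differed by 0.57 ± 0.28 (1.49-fold; limma adjusted p = 0.719). Without sternocleidomastoid 3 the Pfkl difference was 1.28 and passed (adjusted p = 0.0363). Brown adipocyte markers were also higher in sternocleidomastoid: their mean was 9.28, 9.49, 8.55 and 9.62 in the sternocleidomastoid samples and 7.32, 7.27, 7.34 and 8.33 in the quadriceps samples. Sternocleidomastoid 3 was lowest and quadriceps 4 highest of its group for Pfkl, Pfkp, Pgam1 and this mean. The same held for general adipocyte markers, whose mean was 8.80 in sternocleidomastoid 3 and 10.46 in quadriceps 4, above every sternocleidomastoid sample (8.80 to 9.48). It also held for macrophage markers, with means of 7.004 in sternocleidomastoid 3 and 7.58 in quadriceps 4, so the pattern was not particular to fat. Slow fibre markers also had higher means in sternocleidomastoid, 7.48 to 8.15, than in quadriceps, 6.15 to 7.22, though only 1 of the 8 genes was called. Quadriceps 4 and sternocleidomastoid 4 had the lowest slow fibre mean of their groups (6.15 and 7.48) and the highest Pfkl. The part of fat, macrophages or slow fibres in the difference was not tested.

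Around these isoforms, 55 further genes of glucose use were measured in 5 lists. Against aorta 6 of the 55 were higher in tumor and 27 lower, and against muscle 12 were higher and 30 lower. Over all genes the shares were 18.6% higher and 17.5% lower against aorta, and 25.3% and 25.7% against muscle, so that the higher counts lie near or below the background in both comparisons. With arrays centred on housekeeping genes the count lower than aorta rose to 38, and the share of higher calls among all called genes fell from 51.5% to 29.9%. Under the same centring the median difference of all genes from aorta moved from -0.02 to -0.18. The counts against aorta thus moved with the scaling, and the values of named genes are on the deposited scale.

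Glucose and monocarboxylate transporters split by gene. Slc2a1, the basal glucose transporter GLUT1, read 9.95, 11.51, 8.88, 9.67, 8.58, 8.82 and 10.94 in tumors against 7.81 to 8.06 in aortas, 7.61 to 7.87 in quadriceps and 7.79 to 8.07 in sternocleidomastoid. Every tumor exceeded every normal sample, by 3.61-fold on average over aorta (1.85 ± 0.41; adjusted p = 0.00119) and 3.86-fold over muscle (1.95 ± 0.33; adjusted p = 5.78e-05). A second Slc2a1 probe set was dim, at 4.83 in tumor and 4.75 in aorta, and differed by 0.08 and 0.23. Slc2a3, the high-affinity transporter GLUT3, was higher in tumor by 2.02 and 1.65. Slc2a4, the insulin-responsive transporter GLUT4, was 6.44-fold lower in tumor than in aorta (-2.69 ± 0.31; adjusted p = 1.51e-06) and 9.16-fold lower than in muscle (-3.20 ± 0.26; adjusted p = 2.98e-09). Of 12 genes in the list, 3 were higher and 6 lower against aorta, and 4 higher and 5 lower against muscle. The counts of higher genes stand near the shares over all genes.

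The monocarboxylate transporters, which move lactate and pyruvate across the membrane, also split. Slc16a3, the exporter of glycolytic cells, was 3.24-fold higher in tumor than in aorta (1.70 ± 0.43; adjusted p = 0.00402) and 2.51-fold lower than in muscle (-1.33 ± 0.36; adjusted p = 0.00393). Slc16a1 was lower than in aorta by -1.91 (adjusted p = 0.000185), as was Slc16a7 by -2.16 (adjusted p = 0.00151), and neither passed against muscle. Slc2a12, a further glucose transporter, was lower in tumor than in muscle and aorta, with means of 4.98 in tumor, 5.51 in aorta and 7.73 and 7.88 in the muscles.

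Among other enzymes of the glycolytic chain, 0 of 13 were higher and 2 lower in tumor than in aorta, and 3 were higher and 5 lower than in muscle. Of all genes 18.6% were higher and 17.5% lower than in aorta, and 25.3% and 25.7% than in muscle, so 2 of 13 lower is near the background. The median difference was -0.25 against aorta and -0.16 against muscle. The 2 called lower than aorta were Pgam1 and Pklr, the liver and red cell pyruvate kinase (-0.26; adjusted p = 0.0425). Pklr averaged only 5.33 in tumor and 5.59 in aorta, and 5 of the 13 genes had tumor means under the lowest array median of 5.35. The count of genes called lower than aorta was 4 without tumor 2 and 5 without tumor 7. It was 1 on leaving out any 1 of 10 other arrays, among them tumors 1, 3 and 4 and aortas 3 and 4. With housekeeping centring it was 8. Lower than in muscle were Tpi1 (-1.64), Pgk1 (-1.10), Pkm (-1.08 ± 0.20; adjusted p = 0.000119) and Gapdh (-0.65). The fifth call, Pgk2, a testis-type gene, averaged 3.68 in tumor and 3.96 in quadriceps, far below the array medians in every group. Pkm, the pyruvate kinase gene of muscle and proliferating cells, was -0.58 ± 0.24 against aorta (adjusted p = 0.0703).

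Lactate dehydrogenases and pyruvate dehydrogenase kinases decide whether pyruvate goes to lactate or to the mitochondria. Of 8 genes, 1 was higher and 4 lower in tumor than in aorta, and 1 was higher and 5 lower than in muscle. The shares over all genes were 18.6% higher and 17.5% lower against aorta, and 25.3% and 25.7% against muscle. The counts of higher genes thus lie near or below the background. Ldhb, the heart-type subunit, read 6.52 to 8.23 in tumors and 10.39 to 10.70 in aortas, a 9.64-fold difference (-3.27 ± 0.25; adjusted p = 9.71e-09), and was 4.26-fold lower than in muscle (-2.09 ± 0.20; adjusted p = 4.47e-08). Ldha, the muscle-type subunit, differed by -0.46 ± 0.20 from aorta (adjusted p = 0.079) and by -0.72 ± 0.16 from muscle (adjusted p = 0.000891). Pdk2 was lower by 2.45 and 2.91 and Pdk4 by 2.36 and 1.84 log2 units, against aorta and muscle in turn, and Ldhd, for D-lactate, by 2.79 and 2.35. Heart muscle markers (11 of 12, median -4.32) and brown adipocyte markers (10 of 11, median -4.40) were also lower in tumor than in aorta, and their part in the Ldhb, Ldhd, Pdk2 and Pdk4 differences was not tested. The 1 gene higher in both was Pdk3 (0.62, adjusted p = 0.0362, and 1.64, adjusted p = 2.98e-07), and the count of higher genes against aorta fell to 0 without tumor 1, 2, 3 or 7 or any 1 aorta.

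The enzymes that set the level of fructose 2,6-bisphosphate, the activator of phosphofructokinase, and the fructose bisphosphatases made up a list of 6 measured genes. Pfkfb3 was lower in tumor than in aorta (-1.62 ± 0.31; adjusted p = 0.000396) and in muscle (-0.83 ± 0.26; adjusted p = 0.0116). Pfkfb2 was lower by 0.55 and 0.73 log2 units. Pfkfb4 was higher than in aorta (0.52; adjusted p = 0.00145) and lower than in muscle (-0.67; adjusted p = 7.17e-06). Tigar and Fbp2, both phosphatases, were lower than in muscle by 2.25 and 2.08, and Fbp1 was higher by 0.76 (adjusted p = 0.0111), though its mean was only 5.56 in tumor and 4.80 in each muscle. In all 1 was higher and 2 lower than aorta, and 1 higher and 5 lower than muscle. Beside this, 18.6% of all genes were higher and 17.5% lower than in aorta, and 25.3% and 25.7% than in muscle. The counts of higher genes here too lie near or below the background.

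**Figure D5:**
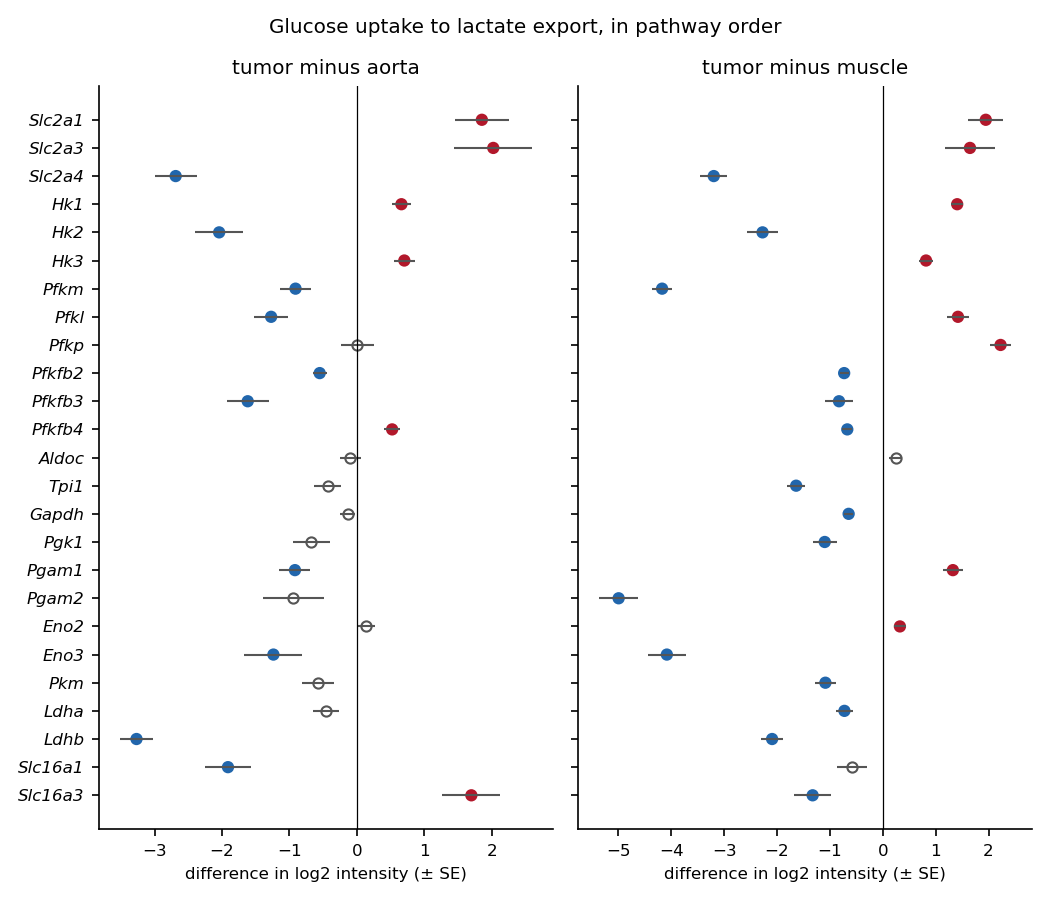
Difference in log2 intensity, with bars of 1 SE, for genes from glucose uptake (top) to lactate export (bottom) in tumor minus aorta (left) and tumor minus muscle (right). Red marks were higher and blue marks lower at an adjusted p of 0.05, and open marks did not pass; Slc2a1, Slc2a3, Hk1 and Hk3 are higher and Slc2a4 and Hk2 lower on both sides.

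Most glycogen enzymes, which store and release glucose units, were lower in tumor. Of 16 measured genes, 13 were lower and 1 higher in tumor than in aorta (median -0.99), and 10 were lower and 3 higher than in muscle (median -2.11). Among all genes 17.5% were lower and 18.6% higher than in aorta, and 25.7% and 25.3% than in muscle. Gys2, the liver and fat glycogen synthase, averaged 9.89 in aorta and 5.22 in tumor (adjusted p = 2.64e-06). The tumor mean was under the lowest array median of 5.35, so no exact fold is given. Also lower than in aorta were Gbe1 (-2.78), Pygl (-2.27) and Ppp1r3c (-2.06). Lower than in muscle were Phkg1 (-4.93), Pygm (-4.87) and Phka1 (-3.97), genes of muscle glycogen breakdown. Ppp1r3a, a glycogen-targeting phosphatase subunit, was lower too, with means of 10.69 and 10.47 in the muscles and 4.78 in tumor, again under that lowest median. The 1 gene higher than aorta was Pgm2, a phosphoglucomutase gene, at 2.04 ± 0.17 (adjusted p = 3.13e-08) and 2.56 ± 0.14 against muscle (adjusted p = 1.58e-11). General adipocyte markers, of a tissue known to express Gys2, had means of 10.6 to 10.8 in aortas and 6.61 to 11.04 in tumors, and their part was not tested.

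For each isoform whose group means spanned over 2 log2 units, the genes with the most similar profile were ranked by the root mean square difference from it over the 19 arrays, after removing each gene's mean, among 18702 genes. Nearest to Hk2 were Vldlr (0.32), Ikzf2 (0.40) and Gys1 (0.45). Nearest to Pfkm were Smyd1 (0.18), Hhatl (0.27) and Ldb3 (0.29), and to Pgam2 Tmem38a (0.22), Hjv (0.26) and Cmya5 (0.27). Eno3 was nearest to Adssl1 (0.41), Pfkm (0.42) and Eef1a2 (0.42). Pfkl had Pgam1 (0.28), Pgd (0.34) and Stxbp2 (0.43), and Pfkp had Dap (0.36), Sh3bgrl (0.38) and Fat1 (0.39). Of the 6 isoforms, 2 had another gene of the glycolytic chain among their 3 nearest. No such share was computed for other genes, so the count is a description only.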

How the data were processed

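Values were the deposited log2 intensities of 41345 probe sets on 19 arrays, from 1.59 to 13.8. Per the labels, RNA was extracted with a miRNeasy kit and labelled with biotin by standard Affymetrix protocols. The submitters' processing notes name Partek 6.6, whose role is not given in the sources used here, and neither is the normalization. In the platform annotation 23521 probe sets had 1 symbol, 1814 several and 16010 none. Single-symbol probe sets gave 22180 genes, with the brightest probe set used for the 1082 genes that had more than 1.

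A model with 1 mean per tissue group was fitted to all 19 arrays and all genes with limma 3.58.1 (lmFit, eBayes) in R 4.3.3, two-sided, with Benjamini-Hochberg adjustment over 22180 genes and a threshold of 0.05. Muscle is the mean of both muscle group means. Isoform ratios, list means and similarity of profiles were computed in Python 3.11.15 with pandas 2.3.3, without tests, and figures with matplotlib 3.10.9. The model was tested on simulated data. The number of arrays limits the precision.

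The genes, the gene lists and the tests were chosen with earlier results of these data known. Named were all members, the 4 largest called differences of each glucose list per tumor comparison, Eno1, Pgam1, Pkm, Ldha, Slc2a1 and Slc2a4, the 3 genes nearest in profile (Riken, Gm-numbered and predicted names left out) and marker genes beside a result. Slc16a3, Gapdh, Pgk2, Pdk3, Pgm2 and Bpgm fall outside this rule and were chosen after their values were seen. Alternatives were centring on the median gene or on 17 housekeeping genes, between-array quantile normalization, a filter on dim genes, averaging a gene's probe sets, a trended and robust eBayes, the compared groups only, each muscle alone, subsets of tumors or aortas, and leaving out each array. Promoter sequences are RefSeq's for GRCm38.p6, found for all 10 genes. Eno1 and Gpi1 were not analysed here.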

Additional observations from a re-analysis of the deposited data

Results flagged for a closer look

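In 14 genes (the 9 isoforms and named partners) each of the 4 tissue groups was checked for a sample far from the others, 56 groups in all, and 4 samples stood apart by Dixon's criterion. Chance alone marks about 1 in 20 groups. Hk3 in aorta 4 was 5.56, with the nearest aorta at 5.74. Pfkp in sternocleidomastoid 3 was 6.25, with the nearest at 7.32, and Pgam1 in the same sample was 7.87, with the nearest at 8.61. That sample also had the lowest brown adipocyte marker mean of its group, 8.55 against 9.28 to 9.62. Its means for macrophage and general adipocyte markers, 7.004 and 8.80, were the lowest of the group too. The part of these in both values was not tested. Pgam2 in quadriceps 4 was 10.8, with the nearest at 11.0. That sample had the highest means of its group for brown adipocyte markers, 8.33, for general adipocyte markers, 10.46, and for macrophage markers, 7.58.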

How the results depend on the processing

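No paired analysis was possible because the labels give no replicate numbers. Across all alternatives, the isoforms called against aorta were 2 higher and 3 to 5 lower, against muscle 4 to 5 higher and 4 lower, and between aorta and muscle 3 to 4 higher and 3 lower. Leaving out 1 array at a time gave 2 higher and 3 to 5 lower against aorta, 4 to 5 higher and 4 lower against muscle, 3 to 4 higher and 3 lower between aorta and muscle, and 0 to 1 higher and 0 lower between the muscles, the 1 being Pfkl without sternocleidomastoid 3. For the glucose lists it gave 5 to 8 higher and 23 to 32 lower against aorta, 12 to 13 and 29 to 32 against muscle, and 12 to 15 and 16 to 19 between aorta and muscle.

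Under the same omissions the isoform log2 ratios ranged as follows, for tumor minus aorta, tumor minus muscle and aorta minus muscle in turn. Hk2 over Hk1 gave -2.88 to -2.41, -3.85 to -3.39 and -1.05 to -0.91. Hk3 over Hk1 gave -0.041 to 0.11, -0.65 to -0.53 and -0.68 to -0.55. Pfkp over Pfkm gave 0.81 to 1.01, 6.24 to 6.496 and 5.32 to 5.58. Pfkl over Pfkm gave -0.49 to -0.25, 5.43 to 5.69 and 5.79 to 6.05. Pgam1 over Pgam2 gave -0.23 to 0.17, 6.07 to 6.46 and 6.15 to 6.43, and with the mean over probe sets aorta minus muscle was 5.63.

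Among single genes, signs turned only in differences that passed no test, and among the ratios only those of Hk3 over Hk1 and Pgam1 over Pgam2 in tumor minus aorta crossed 0. Pfkp in tumor minus aorta was -0.15 with housekeeping centring, -0.0078 with quantile normalization, -0.040 in tumors 1 to 4, -0.37 in tumors 3, 5 and 6, and -0.093 to 0.13 on leaving out an array. Aldoc in tumor minus aorta was 0.092 in tumors 5 to 7, 0.12 with aortas 2 and 4, and -0.23 to 0.038 on leaving out an array. Between the muscles Hk1 was 0.016 with housekeeping centring and -0.081 to 0.076 on leaving out an array, and Aldoc was -0.045 to 0.057. The cause was not tested. Over all genes, housekeeping centring moved the count lower than aorta from 3892 to 6936, and the share of higher calls from 52.6% to 64.1% for aorta against muscle. Between the muscles the all-gene counts were 52 higher and 44 lower, 120 and 80 with those groups alone, and as few as 25 and 26 on leaving out an array. Signal over background limits Hk3, Aldoc, the lowest Pgam2 values, and Gys2, Ppp1r3a, Pklr, Pgk2, Fbp1, Pdk3 and Slc2a12, which have a group mean under the lowest array median.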

Other observations

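Bpgm, the red cell mutase that makes 2,3-bisphosphoglycerate, read 10.50 in tumor 2 and 7.05 to 8.38 in the other tumors, against 7.18 to 7.45 in aortas. Tumor minus aorta was 0.98 (limma adjusted p = 0.0534). The muscles were as high as the tumors on average, with means of 8.48 in quadriceps and 8.36 in sternocleidomastoid against 8.34. Tumor minus muscle was -0.08 (limma adjusted p = 0.852). The mean of the 3 measured erythroid markers was 7.59 in tumor 2 and 5.29 to 6.05 in the other tumors, and Slc4a1, the red cell anion exchanger, read 11.41 there against 6.84 to 8.35. In the muscles the mean of the 3 markers was only 4.92 to 5.22. The part of red cells in the Bpgm levels was not tested.

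Slc2a1 and Slc2a4 differed in which tumors were high. Slc2a1 was highest in tumors 2 and 7 (11.51 and 10.94), while Slc2a4 was highest in tumors 5 and 6 (9.06 and 8.11), as was the mean of general adipocyte markers (11.04 and 10.41). Proliferation markers, all 9 of which were higher in tumor than in aorta and than in muscle, had their lowest tumor means in tumors 5 to 7 (7.58, 7.37 and 7.09).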
